A study of Mus musculus with 4 samples.

Results

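The Ifi27 region of mouse chromosome 12 holds 3 genes of the Ifi27 (ISG12) family, Ifi27, Ifi27l2a and Ifi27l2b, and 2 neighbours from other families, Ddx24 and Otub2. Its members were all rows of the deposited expression table that carry a transcript ID and overlap positions 104640000 to 104725000 of chromosome 12 (mm9), which gave 5 of the 17576 rows. The region was selected on the FPKM values of the comparison made here, in which 1 of its rows differed strongly between the libraries, so that difference is described and not tested.

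The study profiled polyA RNA of mouse embryonic fibroblasts (MEFs), cells grown from mouse embryos, of strain C57BL/6. Every group carried the H3.3-HA knock-in, in which a cDNA of the histone variant H3.3 with an HA tag takes the place of the H3f3b gene, so no group is wild type at that locus. Naive and pretreated cells were each sampled without further treatment (0 h) and after interferon-beta (1 h, 100 U/ml), which makes 4 groups of 1 library. The labels do not give the length of the pretreatment or the interval after it, and they call the assay RNA-Seq in the series title but scTSS-seq in the sample description. Values of 2 libraries were analysed, naive at 1 h and pretreated at 1 h. Both had received interferon-beta for 1 h, so the comparison asks how RNA levels at that time differed between pretreated and naive cells. The sample titles read only pretreated and do not name the agent of the pretreatment. The 0 h libraries were not analysed here, and whether a level was reached before or during the last hour cannot be told apart.

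Interferon-beta belongs to the type I interferons, secreted signals that put cells into an antiviral state. Its receptor switches on transcription factors that bind promoters of interferon-stimulated genes. Genes of the Ifi27 family encode small hydrophobic membrane proteins, and Ifi27l2a is widely used as a marker of cells that have met type I interferon.

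The table carries serial numbers and UCSC transcript IDs, not gene symbols. Rows were named by comparing the lengths of their spans and the distances between neighbouring spans with RefSeq genes (GRCm38.p6). Otub2 and Ifi27l2b had spans of the same length and spacing as in RefSeq, to the base, and the Ddx24 row was 20 bp longer. RefSeq Ifi27l2a matched 2 rows, with both ends within 500 bp, and RefSeq Ifi27 matched 0 rows. Along the chromosome, Otub2 lay at 104615104 to 104644560, Ddx24 at 104646186 to 104664077, and Ifi27l2b at 104689108 to 104695433. The 2 rows that matched Ifi27l2a, XLOC_005344 and XLOC_005882, were listed on a single span of 9808 bp, from 104672083 to 104681890. They were told apart by strand: Ifi27 is on the plus strand and Ifi27l2a on the minus strand. On chromosome 12 the table's serial numbers restarted along the chromosome 2 times. Rows before the first restart were read as plus strand and all later rows as minus, without setting the last run apart. This held for 42 of 42 and 38 of 38 rows matched to a RefSeq gene. By this reading XLOC_005344, with 6 transcript IDs, is Ifi27, and XLOC_005882, with 2, is Ifi27l2a. The names rest on this match and not on a table that pairs the IDs with symbols. RefSeq also lists Ifi27 among the older names of Ifi27l2a, so the symbols can be confused across sources.

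Because the family members resemble each other, reads could in principle be shared between them. The start of the coding sequence is shown for the most similar pair, Ifi27l2a and Ifi27l2b, both on the minus strand (GENCODE M21, coding bases 1 to 254, 5′ to 3′). Capitals mark the 32 bases that differ when the stretches are set side by side without gaps.
Ifi27l2a: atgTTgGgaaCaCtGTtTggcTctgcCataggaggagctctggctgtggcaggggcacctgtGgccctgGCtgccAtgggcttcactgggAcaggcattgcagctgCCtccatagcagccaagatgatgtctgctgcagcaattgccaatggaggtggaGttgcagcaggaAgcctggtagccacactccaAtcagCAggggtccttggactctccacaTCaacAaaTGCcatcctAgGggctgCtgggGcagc
Ifi27l2b: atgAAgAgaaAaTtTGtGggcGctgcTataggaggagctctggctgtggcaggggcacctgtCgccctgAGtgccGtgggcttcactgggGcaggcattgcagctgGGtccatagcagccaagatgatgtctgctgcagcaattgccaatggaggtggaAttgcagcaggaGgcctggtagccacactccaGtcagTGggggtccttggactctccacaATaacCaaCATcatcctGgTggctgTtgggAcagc

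The genes were identical at 222 of these 254 bases (87.4%). The stretch was ended where a score of matches against mismatches was highest, so this share does not describe the whole coding sequences. Their longest common run was 51 bases, coding bases 109 to 159 in both, and it occurred in 2 copies in the coding sequence of Ifi27l2b.
shared run: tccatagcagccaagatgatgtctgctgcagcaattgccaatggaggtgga
Of the 428 different 36-base stretches in the Ifi27l2a transcript, 16 (3.74%) also occurred in Ifi27l2b and in no other gene of the GENCODE M21 transcript set. Ifi27 shared 0 of its 1595 stretches with any other gene, and its longest run in common with Ifi27l2a was 11 bases. All transcripts were read in the sense direction only. Sequence that Ifi27 and Ifi27l2a share by overlap on opposite strands was therefore not searched for. The read length is not given in the sources used here, and 36 bases served only as a short example. In GENCODE, Ifi27l2a has 1 transcript of 463 nt in 4 exons with a coding length of 273 nt. Ifi27l2b has 1 transcript of 1093 nt in 7 exons with a coding length of 852 nt. Ifi27 has 9 transcripts of 410 to 977 nt. These are annotation lengths; the authors' own transcript models are not given in the sources used here.

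Ifi27l2a was far higher in the pretreated cells. Its level was 24.4 FPKM (fragment counts set relative to transcript length and library size) in the naive library and 1178 FPKM in the pretreated library. This is a ratio of 48.3, or a change of 5.54 on the log2(FPKM + 1) scale used for all changes below. It ranked 5 of the 10228 rows with a mean of at least 1 FPKM when these were ordered by change. By level it moved from rank 2262 in the naive to rank 172 in the pretreated library. Among 2042 rows whose naive FPKM lay within 2-fold of that of Ifi27l2a, itself included, 42 were at least 2-fold higher after pretreatment and 2 were at least 16-fold higher. The authors' deposited table calls the row significant, with a q-value listed as 0. Its test statistic corresponds to a standard error of 0.40 on the log2 ratio of 5.59. What that error includes is not given in the sources used here. The spread between cultures was not measured, since there is no replicate.

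Ifi27, which gives the family its name, had the highest level of the region in naive cells and a much smaller difference. It stood at 87.6 FPKM in the naive and 125 FPKM in the pretreated library, a ratio of 1.43 and a change of 0.51. The authors' deposited table gives it a q-value of 0.0582 and does not call it. The order of the pair was therefore inverted: Ifi27 was 3.59 times as high as Ifi27l2a in naive cells, and Ifi27l2a was 9.39 times as high as Ifi27 in pretreated cells. FPKM is scaled by length, so these ratios compare levels per length if the assay is RNA-Seq. The sample description names another assay, and if its reads do not spread along the transcript, scaling by length alters these ratios, those to Ifi27l2b and the family sum. In GENCODE, Ifi27 and Ifi27l2a use opposite strands. Whether the libraries kept strand is not given in the sources used here, so where models on the shared span overlap, reads of the genes could not be told apart without it.

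Ifi27l2b was near the lower limit of detection in both libraries. It had 0.156 FPKM in the naive library and 0.380 FPKM in the pretreated one, and the authors left it untested. If the spread behind the deposited statistic is that of counting alone, these values correspond to about 4.35 and 5.20 reads. The ratio was 2.44, with a standard error of 0.94 on its log2 value of 1.29, so a difference was not detectable at this depth. In pretreated cells the level of Ifi27l2a was 3098 times that of Ifi27l2b, its closest relative in sequence.

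Summed over the 3 family rows, the level was 112 FPKM in the naive library and 1304 FPKM in the pretreated one, a ratio of 11.6. Ifi27l2a made up 21.8% of this sum in naive and 90.3% in pretreated cells.

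**Figure D1:**
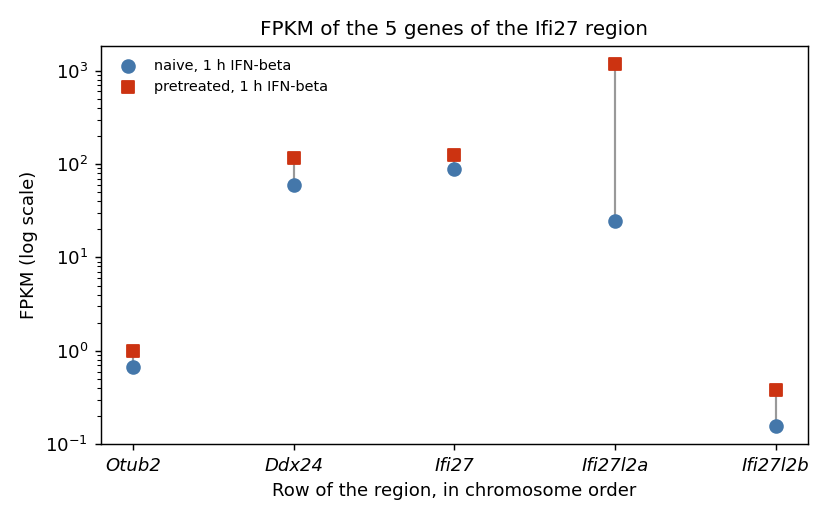
FPKM of each of the 5 genes (log axis) in the naive library (circles) and the pretreated library (squares) after 1 h of interferon-beta, in chromosome order, 1 library per group and hence no error bars. Ifi27l2a runs from 24.4 to 1178 FPKM, while Ifi27 stays between 87.6 and 125 FPKM and Ifi27l2b under 1 FPKM.

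The neighbours lie before the family rows in chromosome order. Ddx24 encodes a DEAD-box RNA helicase that has been described as a negative regulator of RIG-I-like receptor signalling, the pathway that senses viral RNA in the cytosol. Its row ends 8005 bp before the shared Ifi27 span. It had 59.4 FPKM in the naive library and 115 FPKM in the pretreated one, a ratio of 1.93 and a change of 0.94. The authors' deposited table calls it higher, with a q-value of 0.0162, and its statistic corresponds to a standard error of 0.30 on the log2 ratio of 0.95. Among 1177 rows of similar naive level, within 2-fold of Ddx24 and including it, the median change was -0.22 and 23 were at least 2-fold higher.

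Otub2 encodes a deubiquitinase of the OTU family. It enters the region only with the last 4561 bp of its span. Its values were 0.675 FPKM in the naive library and 0.989 FPKM in the pretreated one, a ratio of 1.46 that the authors' deposited table does not call (q-value 0.424).

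All 5 rows were thus listed higher in the pretreated library, against 37.2% of the 10228 rows compared. Of the members, 3 reached the mean of 1 FPKM, and Otub2 and Ifi27l2b did not. Past 2-fold there was 1 member, Ifi27l2a, where 2.83% of all rows compared were at least 2-fold higher, and 0 members were at least 2-fold lower, where 7.12% of all rows were. The authors' deposited table calls 2 members higher, Ifi27l2a and Ddx24, where it calls 3.91% of the 13388 tested rows higher. The members were picked with this contrast in view, so nothing is read from these shares. The median change was 0.94 over the 3 members that reached the mean of 1 FPKM and 0.51 over all 5 members, and that of all rows compared was -0.16, with quartiles of -0.51 and 0.17. Ddx24 lay close to the 2-fold line: relative to the median of all rows its change was 1.10, and 4.14% of all rows were at least 2-fold higher on that scale.

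Just outside the region, the nearest row on each side was near 0 in both libraries. The nearest row before it, at 104559352 to 104594211, is Asb2, a substrate-recognition subunit of an E3 ubiquitin ligase, with 0.0618 FPKM in the naive library and 0.0279 FPKM in the pretreated one. The nearest row after it is Ppp4r4, a regulatory subunit of protein phosphatase 4, with 0.0577 FPKM in the naive library and 0.117 FPKM in the pretreated one. Neither was tested by the authors. Over the 5 nearest rows on each side, changes ran from -0.75 to 0.12 with a median of -0.22. Of these rows, 4 reached a mean of 1 FPKM, and the highest level was 15.4 FPKM. Within 1 Mb on either side, 10 rows reached a mean of 1 FPKM. Among them 3 were at least 2-fold lower and 0 were 2-fold higher, with a range of -2.31 to 0.01.

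**Figure D2:**
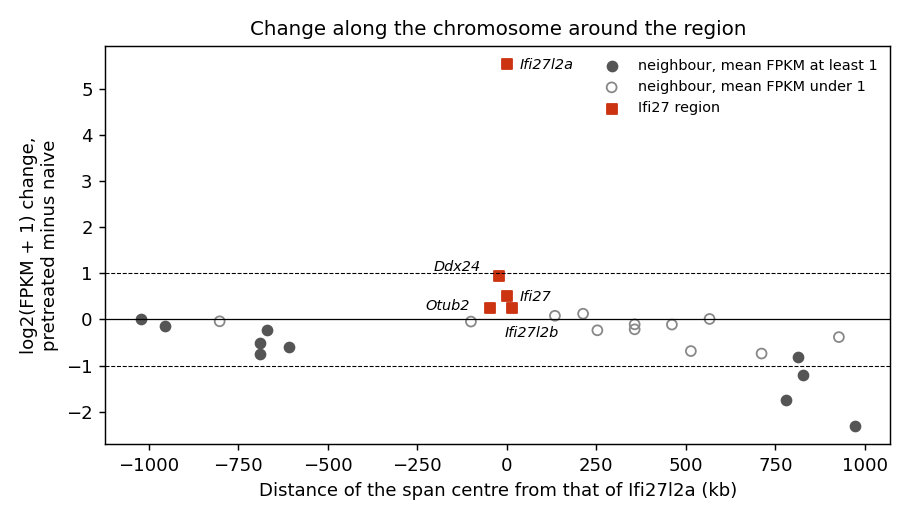
Change in log2(FPKM + 1), pretreated minus naive, against the distance in kb from the centre of the Ifi27l2a span, for the 5 genes (squares) and the rows with a transcript ID within 1 Mb (filled circles for a mean of at least 1 FPKM, open circles below it). Dashed lines mark 2-fold; Ifi27l2a stands at 5.54, and the neighbours outside the region lie between -2.31 and 0.12.

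Other interferon-stimulated genes were set beside the region. Of 17 listed genes, 14 could be named by span and spacing. The authors' deposited table calls 14 of these higher and 0 lower, where it calls 3.91% of the 13388 tested rows higher and 11.9% lower. The list was chosen with earlier results of these data known, so nothing is read from these counts. Changes of the 14 genes ran from 0.80 to 4.50 with a median of 3.27. Of the 14, 12 were at least 2-fold higher, where 2.83% of all rows compared were. The change of Ifi27l2a was larger than that of each of the 14. Ifit3, which binds viral RNA together with its relatives, had the largest change of the list on the log2(FPKM + 1) scale, at 246 FPKM in the naive library and 5584 FPKM in the pretreated one. By the plain ratio, Oasl2 (26.5), Isg15 (24.9) and Bst2 (23.2) exceeded Ifit3 (22.7), and Ifi27l2a (48.3) exceeded all 14. Isg15, a ubiquitin-like modifier, stood at 4.49 FPKM and 112 FPKM, and Bst2 (tetherin), which holds budding virus at the cell surface, at 12.0 FPKM and 278 FPKM. In naive cells Ifi27l2a therefore had a higher level than Isg15 and Bst2, and a lower one than Ifit3. Ifi27 and Ddx24 lay at the other end of the order, beside the transcription factors Stat2, with a change of 0.80, and Irf9, with 0.90.

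**Figure D3:**
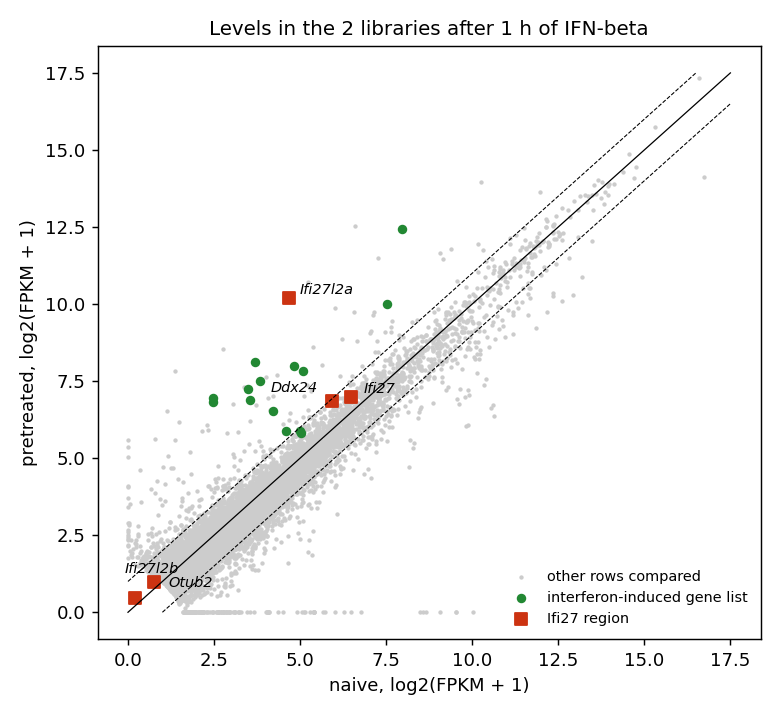
Level in the pretreated against the naive library, log2(FPKM + 1) on both axes, for the 10228 rows compared (grey), the 14 interferon-stimulated genes (circles) and the 5 genes of the region (squares). The solid line marks equal levels and the dashed lines 2-fold; Ifi27l2a lies far above the upper dashed line, and the other 4 genes lie between the dashed lines.

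**Figure D4:**
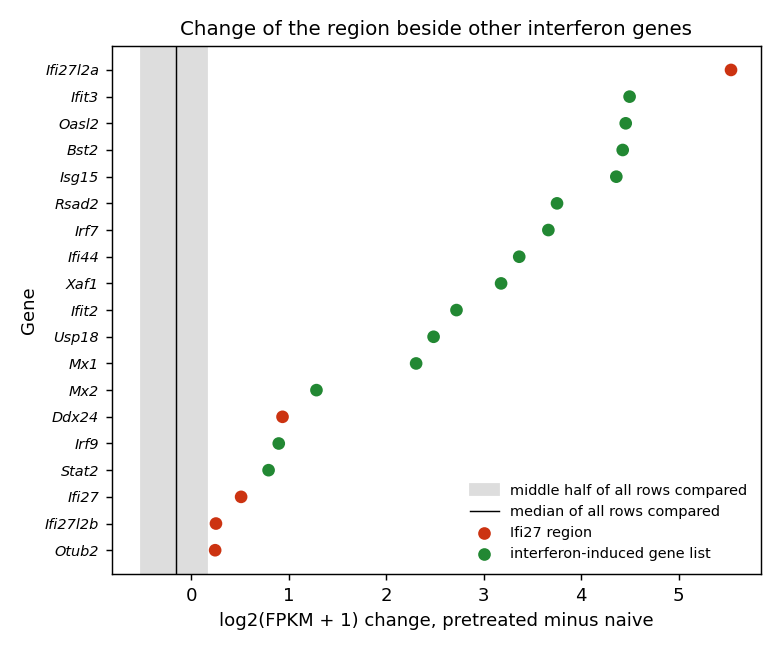
Change in log2(FPKM + 1), pretreated minus naive, of the 5 genes of the region and the 14 interferon-stimulated genes, in order of change. The grey band spans the quartiles of all rows compared (-0.51 to 0.17); Ifi27l2a is at the top with 5.54 and Otub2 at the bottom with 0.25.

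The rows most like Ifi27l2a, by the distance in change and in pretreated level on the log2 scale over these 2 libraries, were also far higher in pretreated cells. The nearest was XLOC_011538 on chromosome 17, from 34111604 to 34137278, with 36.3 FPKM in the naive library and 1692 FPKM in the pretreated one. The next was XLOC_010092 on chromosome 16, from 31286932 to 31314860, with 5.79 FPKM and 368 FPKM. Neither could be named. The third, Lgals3bp, a secreted glycoprotein that binds galectins, had 64.0 FPKM in the naive library and 944 FPKM in the pretreated one. With a point from only 2 libraries per gene, this likeness is a description of levels.

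Promoters were searched for the interferon-stimulated response element, taken as the letters GAAA, any 2 bases and GAAA again on either strand, and for the gamma-activated site, written TTCNNNGAA, which reads alike on both strands. RefSeq promoters (GRCm38.p6) run from 250 bases before to 50 bases after a gene's start. Of the members, Otub2 and Ddx24 were matched, with 4 promoters, and 0 of these held either motif. Over all 32851 promoters, 3.44% held the first motif and 8.30% the second; counted per gene, the shares were 3.99% and 9.55% of 27025 genes. Of the named interferon-stimulated genes, 11 were matched, and 5 of them held the first motif: Bst2, Ifit3, Isg15, Rsad2 and Stat2. The second motif was held by 2 of the 11, Bst2 and Ifit2. Ifi27, Ifi27l2a and Ifi27l2b were not matched.

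Markers were checked for the labelled cell type. Of 8 fibroblast markers, 6 could be named, and their summed level was 4849 FPKM in the naive library and 2279 FPKM in the pretreated one, and most of that difference was in Col1a1, at 3255 FPKM and 1164 FPKM. Of the 6, 2 were listed higher, 1 was at least 2-fold lower, and the authors' deposited table calls 0 of them. Col1a2 had 521 FPKM and 293 FPKM, Col3a1 111 FPKM and 69.1 FPKM, Vim 917 FPKM and 704 FPKM, and Pdgfrb 45.0 FPKM and 47.8 FPKM. Thy1 was near 0 in both libraries, at 0.144 FPKM and 0.293 FPKM. Of 4 macrophage markers, 2 could be named, Cd68 and Csf1r, which summed to 0.836 FPKM in the naive library and 1.11 FPKM in the pretreated one. Of 4 epithelial markers, 2 could be named, Cdh1 and Krt18, which summed to 1.30 FPKM and 1.42 FPKM, with Krt18 listed at 0 in naive cells. Of 3 endothelial markers, Pecam1 was named, at 0.0629 FPKM and 0.0204 FPKM. The 3 collagen rows were listed lower where Ifi27l2a was listed higher, at q-values of 0.218, 0.375 and 0.330 for Col1a1, Col1a2 and Col3a1 in the authors' deposited table, and their part in the result was not tested. In such bulk RNA, a change in the share of cells that express Ifi27l2a and a change in RNA per cell cannot be told apart. If the deposited statistics hold counting spread alone, which was not tested, the depth of the pretreated library relative to the naive one was 0.491. Depth was likewise not tested for its part in the result.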

How the data were processed

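PolyA RNA of MEFs was profiled in 4 groups of 1 library, and values of 2 were used. The authors deposited an FPKM value per row and library, with a p-value, a q-value, a log2 fold change and a test statistic for the pair. TopHat, Cufflinks 1.2.1 and mm9 are named in the submitters' processing notes; the annotation, options and read length are not given in the sources used here. Deposited starts were raised by 1: spans of 3469 of 15883 rows with a transcript ID then had the exact length of a RefSeq gene, against 858 with spans 1 bp longer. Names needed both ends within 500 bp of the spacing from the nearest 2 of 2732 anchor rows, which have the exact length of a RefSeq gene and share their spacing with at least 2 others within 2 Mb. The Ifi27 row was an exception: it matched the span of Ifi27l2a and was named by strand.

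The change was the difference of log2(FPKM + 1), which understates changes of low rows, over 10228 rows of usable status and a mean of at least 1 FPKM. No test was run, with 1 library per group. Standard errors are the log2 ratio over the authors' deposited statistic. Depth in reads is unknown; its ratio was the constant at which most implied read numbers under 6 were whole within 0.05 (30.3% of 1208 rows). The calculations were tested on simulated data with spread from counting alone. Whether the deposited statistics have that form was not tested, so the simulation does not bear on the depth ratio or the implied reads. The text describes all members, the nearest row on each side and the first 3 of the 5 rows most like Ifi27l2a. Alternatives were the pseudocount, the filter, centring, the threshold and the choice of rows. A gene of the interferon list is not reported here. Members and lists were chosen with earlier results of these data known. Calculations used Python 3.11.15, pandas 2.3.3 and numpy 2.4.6.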

Additional observations from a re-analysis of the deposited data

How the results depend on the processing

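Ifi27l2a stayed at least 2-fold higher under the alternatives tried, with changes of 5.54 to 5.70, and 0 members were at least 2-fold lower. Centring on the median of all rows placed Ddx24 past 2-fold too, giving 2 higher members in place of 1. The change of Ifi27l2b, whose level is near 0, was 0.91 with a pseudocount of 0.1 and 1.23 with 0.01, against 0.26, because the pseudocount of 1 exceeds its level. Adding rows without a transcript ID added 0 rows, and keeping only spans wholly inside the region left out Otub2. Over all rows, the counts at least 2-fold higher and lower moved from 289 and 728 to 465 and 1175 with a pseudocount of 0.1, 497 and 1242 with 0.01, 176 and 452 at a mean of at least 5 FPKM, and 99 and 143 at 4-fold; 391 were lower among rows with a transcript ID. Replicates could not be dropped in turn. No paired analysis was possible because there was a single library per group. The log2 ratio had a standard error of 0.40 for Ifi27l2a and 0.94 for Ifi27l2b, and what set these errors was not tested.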

Other observations

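Beyond the region, within 1 Mb after it, the named Serpina3 genes at a mean of at least 1 FPKM were lower in pretreated cells. They were singled out after their values were seen. These genes encode secreted inhibitors of serine proteases, and Serpina3n is known as an acute-phase and inflammatory marker. Serpina3n had 6.34 FPKM in the naive library and 0.477 FPKM in the pretreated one, a change of -2.31. Serpina3i had 3.18 FPKM and 0.804 FPKM, a change of -1.21. Serpina3n and Serpina3i are called lower in the authors' deposited table, where 11.9% of the 13388 tested rows are called lower. Serpina3h had 3.80 FPKM and 1.72 FPKM, a change of -0.82, and is not called there. A row before Serpina3h, from 105430860 to 105480155, could not be named. It had 145 FPKM in the naive library and 42.8 FPKM in the pretreated one, a change of -1.74, and is called lower. Serpina3 genes are close relatives in sequence, so how their reads were split is uncertain.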
